A study of Mus musculus with 18 samples.

Results

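Cytochrome P450 genes of families 1 to 4 encode most of the enzymes with which the liver oxidizes drugs, carcinogens, steroids and fatty acids. The 74 genes whose symbols begin with Cyp1, Cyp2, Cyp3 or Cyp4 followed by a subfamily letter and a number were taken from a table of 28442 genes, and they span 19 subfamilies. RefSeq annotates 69 of them as protein coding, 4 as transcribed pseudogenes and 1 as a long noncoding RNA. Of the 74 members, 14 were listed at 0 in every sample, 13 were above 0 in some sample but too low to be tested, and 47 were tested, out of 11452 genes tested in all. They were measured by bulk RNA-seq in 6 livers and 12 advanced hepatocellular tumors of Alb-R26Met mice.

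All 18 samples came from mice of the same genotype. They were F1 offspring of R26stopMet (C57BL/6JRj) and Alb-Cre (129S2/SvPasOrlRj) parents. In them Cre, driven by the Alb promoter, switches on in the hepatocyte lineage a Met receptor made of mouse and human parts, whose gene was placed in Rosa26. The control livers therefore carry the Met transgene too, and they were taken from untreated mice without tumors. Only male mice were used, according to the methods. Livers came from 6 mice aged 52 to 71 weeks, and tumors from mice aged 49 to 72 weeks. Tumors 11 and 12 came from the same mouse, so that the 18 samples represent 17 mice. The sample names carry the tag E19 (2 livers, 7 tumors) or E20 (4 livers, 5 tumors), whose meaning is not given in the labels.

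P450 enzymes of these families sit in the endoplasmic reticulum, hold a heme group and receive electrons from the reductase Por. In the liver lobule many of them are zonated: Cyp2e1, Cyp1a2 and several Cyp2c enzymes are found around the central vein, where Wnt signals act, while Cyp2f2 is found around the portal tract. Their genes are switched on by receptors that sense ligands, namely the aryl hydrocarbon receptor Ahr for Cyp1a, the receptors Nr1i3 (CAR) and Nr1i2 (PXR) for Cyp2b, Cyp2c and Cyp3a, and Ppara for Cyp4a. Mice have large P450 gene clusters with many near-identical copies, and the rhythm of growth hormone secretion sets several of them at different levels in males and females.

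Cyp2a4, which hydroxylates steroids, and Cyp2a5, the mouse coumarin hydroxylase, are near-identical members of the same cluster, and their sequences are shown because reads must tell them apart. Both lie on the forward strand of chromosome 7 (GRCm38.p6). Their RefSeq promoters, from 250 bases before to 50 bases after the start, matched at 294 of 301 aligned positions (97.7%). Capitals mark the bases that differ between both promoters or lie opposite a gap, the Cyp2a4 window being chr7:26306942-26307241 and the Cyp2a5 window chr7:26835089-26835388, both on the plus strand.
Cyp2a4: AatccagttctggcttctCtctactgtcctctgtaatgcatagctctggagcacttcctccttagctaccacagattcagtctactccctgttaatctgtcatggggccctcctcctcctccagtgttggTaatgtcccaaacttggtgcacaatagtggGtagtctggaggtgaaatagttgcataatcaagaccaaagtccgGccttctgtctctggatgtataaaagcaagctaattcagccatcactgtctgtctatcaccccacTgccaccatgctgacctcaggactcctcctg
Cyp2a5: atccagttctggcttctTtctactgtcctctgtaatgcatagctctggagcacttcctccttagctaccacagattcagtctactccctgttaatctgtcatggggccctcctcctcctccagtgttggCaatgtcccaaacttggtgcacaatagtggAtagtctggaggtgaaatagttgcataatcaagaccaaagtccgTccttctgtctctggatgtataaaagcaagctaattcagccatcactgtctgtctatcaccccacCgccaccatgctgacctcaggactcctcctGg

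The coding sequences of Cyp2a4 and Cyp2a5 in the GENCODE models differed at 23 of 1482 positions (98.4% identical). The 120 coding bases with the densest differences, coding positions 550 to 669, held 6 of these 23, again in capitals.
Cyp2a4: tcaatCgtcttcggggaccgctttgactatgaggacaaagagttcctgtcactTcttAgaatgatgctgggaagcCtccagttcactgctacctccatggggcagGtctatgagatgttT
Cyp2a5: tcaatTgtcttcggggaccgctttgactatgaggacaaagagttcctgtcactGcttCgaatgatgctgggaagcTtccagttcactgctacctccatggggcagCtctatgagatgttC

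Elsewhere in the same cluster, Cyp2b10, the classical gene induced by phenobarbital, and Cyp2b9, a female-biased gene, belong to 1 subfamily. Their promoters are far less alike, with 229 of 314 aligned positions identical (72.9%). The windows are chr7:25897408-25897707 for Cyp2b10 and chr7:26173159-26173458 for Cyp2b9, both on the plus strand, and capitals mark differing bases or bases opposite a gap.
Cyp2b10: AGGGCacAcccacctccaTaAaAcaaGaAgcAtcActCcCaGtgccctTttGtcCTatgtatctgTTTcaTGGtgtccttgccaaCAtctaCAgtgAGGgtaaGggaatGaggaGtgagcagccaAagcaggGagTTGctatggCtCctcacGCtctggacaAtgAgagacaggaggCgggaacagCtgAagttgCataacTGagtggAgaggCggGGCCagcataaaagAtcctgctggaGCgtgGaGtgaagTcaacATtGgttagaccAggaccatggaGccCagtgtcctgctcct
Cyp2b9: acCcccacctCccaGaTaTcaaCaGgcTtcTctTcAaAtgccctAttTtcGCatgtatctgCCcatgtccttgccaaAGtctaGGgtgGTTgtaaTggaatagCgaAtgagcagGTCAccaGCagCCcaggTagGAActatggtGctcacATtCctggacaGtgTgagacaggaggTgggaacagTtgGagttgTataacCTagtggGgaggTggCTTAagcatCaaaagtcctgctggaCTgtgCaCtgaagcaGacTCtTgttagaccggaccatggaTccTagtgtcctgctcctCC

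Promoter windows were found for 57 of the 74 members (64 windows of 300 bases). A TATA box (TATAAA, either strand) was present in 27 of these 64 windows (42.2%), against 13.6% of all 32851 promoter windows, and both Cyp2a genes shown above carry it. The core of the element bound by Ahr (GCGTG, either strand) was present in 13 of 64 windows (20.3%), against 32.4% of all windows, and a core of the HNF1 site (GTTAAT, either strand) in 8 of 64 (12.5%), against 7.10%. The STAT5 site (TTCNNNGAA, which is its own reverse complement) was present in 4 of 64 windows (6.25%), against 8.30% of all windows. A nuclear receptor core site (TGACCT, either strand) was present in 16 of 64 windows (25%), against 16.3%. None of the searched motifs contains another, and a match describes letters in a window, not a bound site.

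Levels are given as scaled TPM, that is, TPM (transcript abundance relative to the sample total) as deposited (rounded to whole numbers) divided by a factor per sample, because a few genes take unequal shares of the total. Samples summed to between 835144 and 907513 TPM over the table. Tumor 2 stood apart, since 1 row of the table held 82.9% of its total, against 17.9% to 53.4% in the other samples, so that 1 deposited TPM there counts for more than 5 scaled TPM and low genes are listed at 0. The summed level of 8 hepatocyte markers was 43303 to 58244 scaled TPM in livers and 40405 to 81241 in tumors, so the labelled tissue showed its defining markers throughout. In bulk tissue, fewer cells of a type and less RNA per cell cannot be told apart.

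Liver 1 also stood apart from the other 5 livers, in members of the family. As deposited, the female-biased members Cyp3a41a, Cyp3a41b and Cyp3a16, 3A enzymes of the female liver, were at 24, 13 and 9 TPM in liver 1. They were at 0 in livers 2 to 6, and Cyp2b9 was at 349 TPM in liver 1 against 1 to 43. Cyp2a4, also listed as female-biased, was within the range of the other livers in liver 1 (43 against 23 to 78 TPM). The male-biased fatty acid hydroxylase Cyp4a12a was at 1 TPM in liver 1 and at 133 to 272 TPM in the other livers. Beyond the members, the female-biased gene Cux2 was at 10 TPM in liver 1 and at 0 in the others, while the male-biased genes Slco1a1 and Mup20 were at 0 and 25 TPM against 40 to 112 and 1022 to 6341. Xist, the transcript of the inactive X chromosome, was listed at 0 in all samples, and 4 Y-linked genes were above 0 in liver 1 and in the other livers. Of the 47 tested members, 26 were lowest among livers in liver 1 and 7 were highest, counts that were not made over all genes tested. The calls that rest on liver 1 are given with and without it.

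To compare tumors with livers over the whole family, the levels of the 74 members were first summed in each sample. The sum was 4900 scaled TPM in liver 1, between 8044 and 10676 in livers 2 to 6, and between 2517 (tumor 2) and 6752 (tumor 10) in tumors, with medians of 9534 in livers and 4448 in tumors. All 12 tumors lay below livers 2 to 6, while 9 of 12 lay below liver 1. The composition of the sum changed as well: Cyp2e1 made up 17.8% to 26.7% of it in livers and a median of 5.98% in tumors (1.05% to 32.3%), whereas Cyp2a4 made up 0.231% to 0.664% in livers and 3.78% to 32% in tumors. Cyp3a11 made up 8.70% to 20.7% in livers and 9.88% to 18.2% in tumors.

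**Figure D1:**
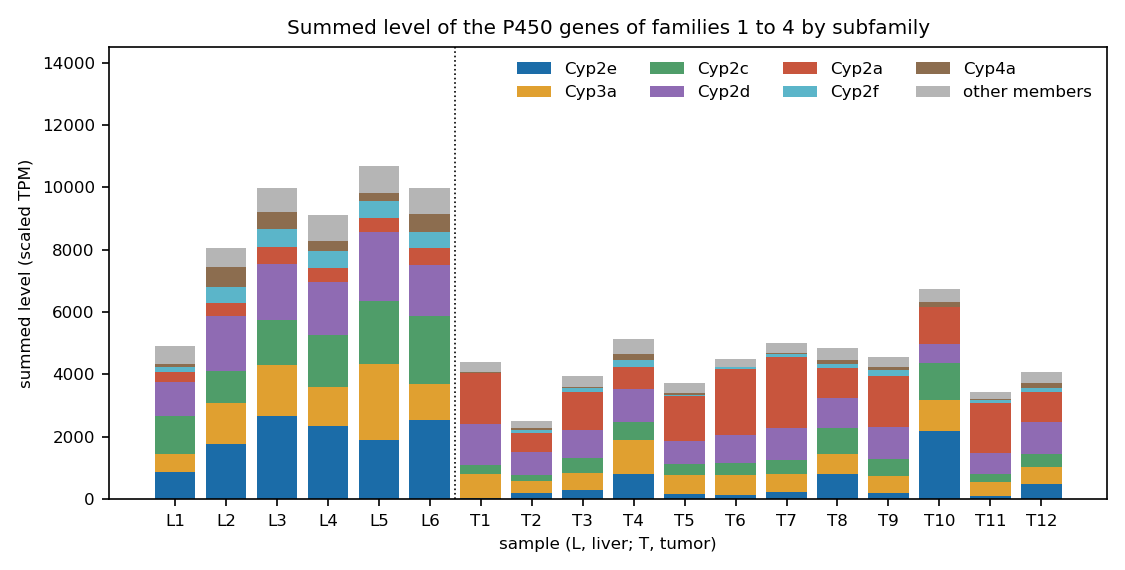
Summed level of the members in each of 6 livers (L) and 12 tumors (T), in scaled TPM, stacked by subfamily. Livers 2 to 6 reach 8044 to 10676 and tumors 2517 to 6752, and the Cyp2a share is larger in every tumor than in any liver.

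Gene by gene, 28 of the 47 tested members passed the threshold (limma, adjusted p under 0.05), against 19.1% of all genes tested. In tumors 26 members were lower, which 9.15% of all genes were, and 2 were higher, which 9.95% of all genes were. Among them 22 were at least 2-fold lower (4.04% of all genes) and 1, Cyp2a4, was at least 2-fold higher (5.69% of all genes). The median log2 fold change of tumors over livers was -1.18 over the 47 members and -0.06 over all genes tested. In scaled TPM every tumor lay below every liver for Cyp2c50, Cyp2c37 and Cyp2u1 (0.882% of all genes). On the same scale every tumor lay above every liver for Cyp2a4 and Cyp4f16 (2.35% of all genes). Without liver 1 the numbers were 29 lower (10.9% of all genes) and 3 higher (10.8% of all genes), and 15 members did not overlap between groups (7.08% of all genes). The 4 calls gained were Cyp2b9, higher, and Cyp4a12a, Cyp3a13 and Cyp4v3, lower, and no call was lost. For Cyp3a13 the log2 fold change was -0.60 with liver 1 (adjusted p = 0.065) and -0.76 without it (adjusted p = 0.0157). For Cyp4v3 it was -0.73 (adjusted p = 0.121) and -1.07 (adjusted p = 0.00664). Without tumor 4, 8 members did not overlap (4.11% of all genes). All 28 called members kept their sign under every alternative setting, and 22 stayed called whichever of the 18 samples was left out.

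**Figure D2:**
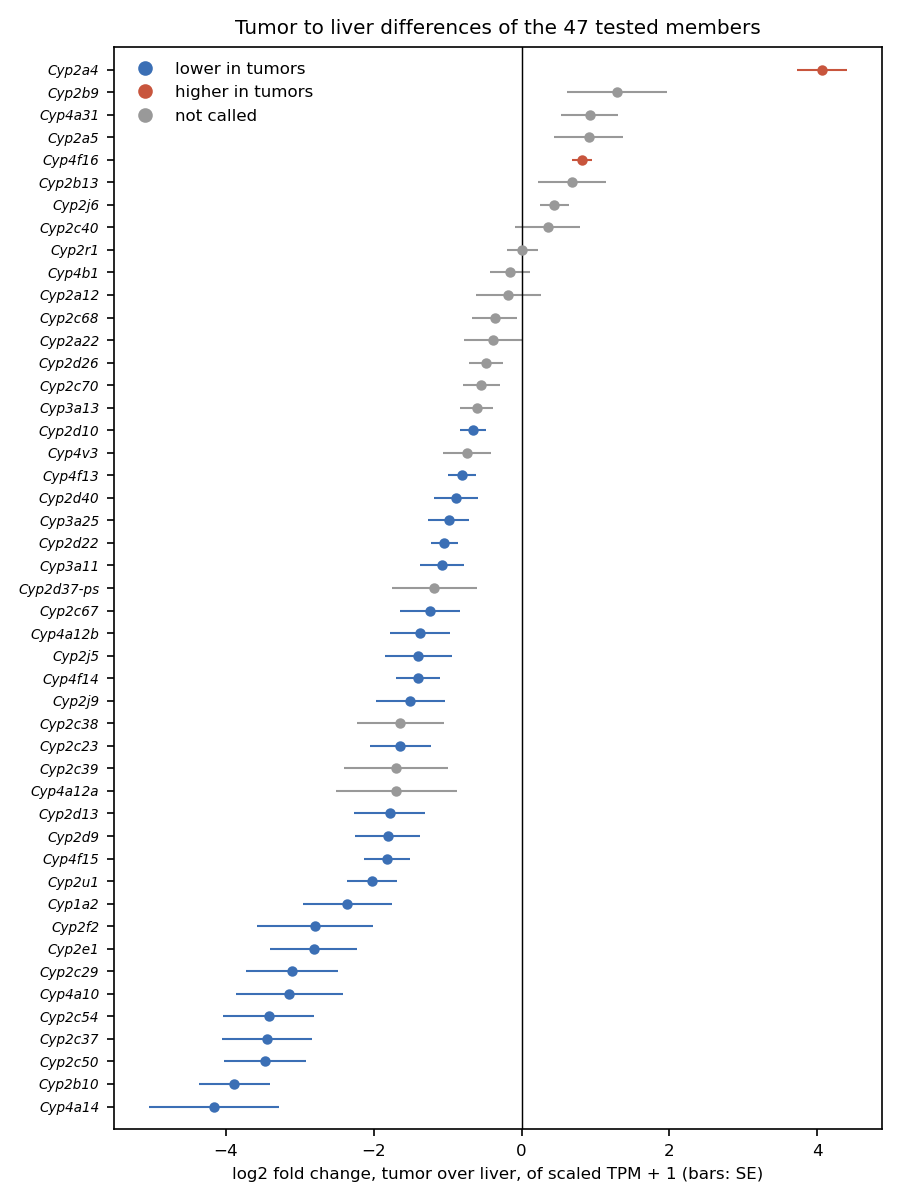
Log2 fold change of tumors over livers for the 47 tested members, on the scale of log2(scaled TPM + 1), with SE. Members called lower are blue, called higher red and not called gray, and Cyp2a4 at 4.07 lies far above the next called member, Cyp4f16 at 0.82.

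Cyp2e1, which oxidizes ethanol, acetaminophen and nitrosamines, was the most abundant member in livers, with a mean of 2012 ± 659 scaled TPM (SD, n = 6). Its level ranged from 878 (liver 1) over a median of 2119 to 2664 in livers, and from 46.2 (tumor 1) over a median of 207 to 2181 (tumor 10) in tumors. Thus 11 of 12 tumors were below every liver, and tumor 10 alone reached the livers' range. The log2 fold change was -2.81 (SE 0.59, adjusted p = 0.00181), a 7.03-fold lower level.

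Cyp1a2, the caffeine- and arylamine-oxidizing enzyme, was also highest in tumor 10. It ranged from 59.2 (liver 1) over 189 to 226 scaled TPM in livers and from 2.16 over 29.9 to 260 in tumors. Tumor 10 was above every liver, and 9 of 12 tumors were below every liver. Livers 2 to 6 were at 153 to 226, and every tumor except tumor 10 was below them. The log2 fold change was -2.35 (SE 0.60, adjusted p = 0.00846). Its family members Cyp1a1 and Cyp1b1, the inducible and the mainly extrahepatic Ahr targets, never exceeded 1 TPM as deposited in any sample. Cyp1a1 was at 1 TPM in 5 of 6 livers and in 1 of 12 tumors, tumor 10.

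The Cyp2c subfamily, whose enzymes epoxidize fatty acids and oxidize many drugs, held the most members that fell, 6 of 11 tested. It also had the most tested members, and its share was near the 55.3% of all 47 tested members that fell. Cyp2c29, the most abundant Cyp2c member in livers, ranged from 369 over 550 to 998 scaled TPM in livers and from 5.05 over 61.0 to 389 in tumors. Of the 12 tumors 11 lay below every liver, tumor 10 being the exception, and the log2 fold change was -3.10 (SE 0.62, adjusted p = 0.00123).

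Cyp2c50 and Cyp2c37, linoleic and arachidonic acid epoxygenases, separated the groups fully. Cyp2c50 ranged from 148 over 229 to 390 scaled TPM in livers and from 1.44 over 19.5 to 95.6 in tumors, an 11.1-fold lower level (log2 fold change -3.47, SE 0.55, adjusted p = 0.000144). Cyp2c37 ranged from 69.7 over 120 to 162 in livers and from 0.721 over 6.61 to 64.9 in tumors (log2 fold change -3.44, SE 0.61, adjusted p = 0.000424). For both, the highest tumor was still below the lowest liver.

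Cyp2c54 was lower by a like amount (log2 fold change -3.42, SE 0.62, adjusted p = 0.000530), from a liver median of 36.4 to a tumor median of 2.10 scaled TPM. Cyp2c50, Cyp2c37 and Cyp2c54 are 95.1% to 96.1% identical in their coding sequence, so that their reads may be divided among them imperfectly. Cyp2c23, an arachidonic acid epoxygenase, fell from a median of 114 to 26.7 scaled TPM (log2 fold change -1.64, SE 0.41, adjusted p = 0.00718). Cyp2c67 fell by 1.23 on the log2 scale (SE 0.41, adjusted p = 0.0367), but the call was lost when any of 4 livers (3, 4, 5 and 6) or 4 tumors (1, 3, 5 and 11) was left out, with adjusted p up to 0.107.

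The other Cyp2c members did not pass the test. Cyp2c39, a retinoic acid hydroxylase, ranged from 7.5 over 26.5 to 103 scaled TPM in livers and from 0.975 over 5.41 to 193 in tumors (log2 fold change -1.69, adjusted p = 0.101). Tumor 10 held the highest value, and without it the adjusted p was 0.00579. Cyp2c70, the enzyme that makes muricholic bile acids in rodents, had means of 265 ± 108 scaled TPM in livers (n = 6) and 172 ± 45.3 in tumors (n = 12) and did not pass the test (adjusted p = 0.143, and 0.0394 without liver 2). The female-biased Cyp2c40 had medians of 1.03 scaled TPM in livers and 2.44 in tumors (adjusted p = 0.643). Cyp2c55, a CAR target, was below the filter, at 1 to 2 TPM in livers as deposited and at 0 to 1 in tumors except tumor 10, where it was at 22 TPM. Cyp2c69 did not exceed 1 TPM in any sample.

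**Figure D3:**
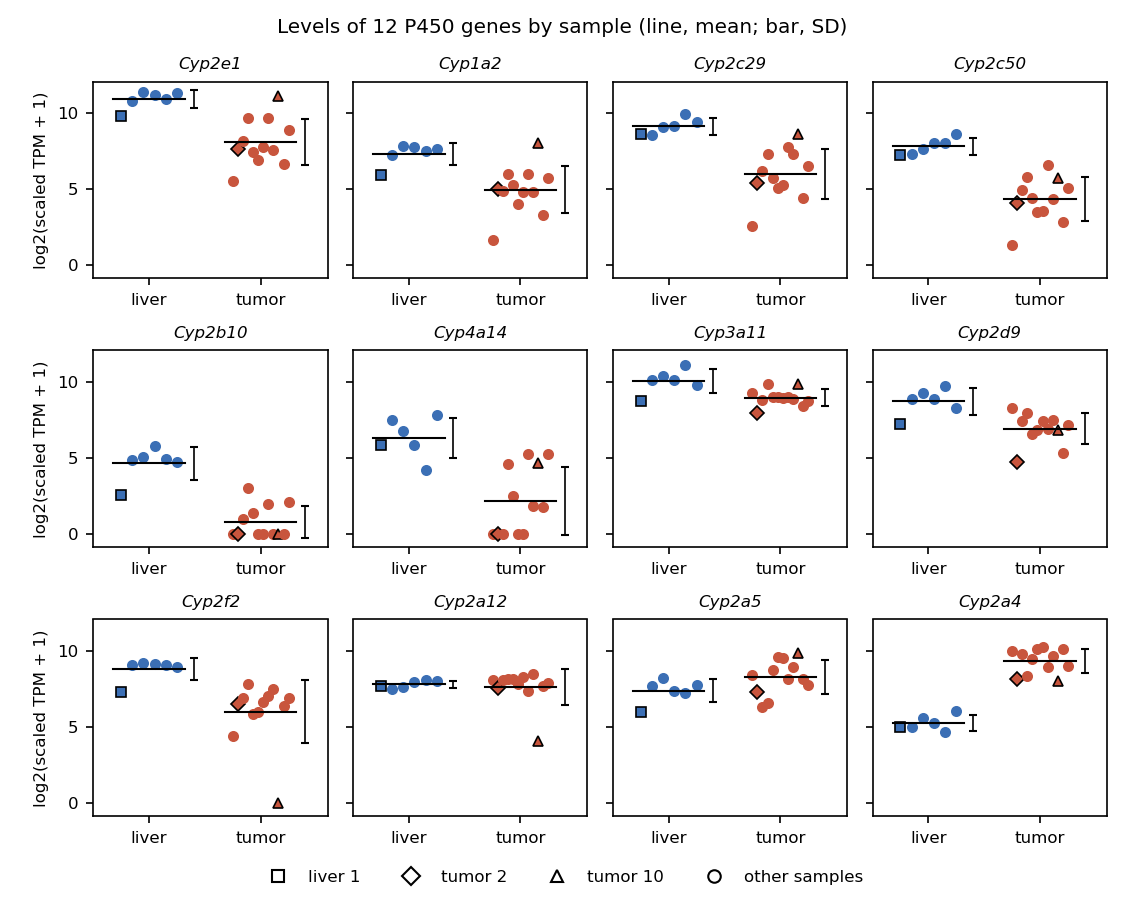
Levels of 12 members in each sample on the scale of log2(scaled TPM + 1), livers in blue and tumors in red, with group means as lines and SD as bars. Liver 1 is the square, tumor 2 the diamond and tumor 10 the triangle, which stands with the livers for Cyp2e1, Cyp1a2 and Cyp2c29 and at 0 for Cyp2f2.

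Cyp2f2, the periportal member, which activates naphthalene, fell too. It ranged from 158 (liver 1) over 539 to 583 scaled TPM in livers and from 0 (tumor 10) over 94.8 to 223 in tumors. Of the 12 tumors 10 were below every liver, and all were below livers 2 to 6, which were at 495 to 583. The log2 fold change was -2.79 (SE 0.79, adjusted p = 0.0153). Of the 8 pericentral members (Cyp1a2, Cyp2a5, Cyp2c29, Cyp2c37, Cyp2c50, Cyp2c54, Cyp2e1 and Cyp3a11), 7 fell and Cyp2a5 did not pass the test, and their median log2 fold change was -2.96, beside -0.06 for all genes tested. Over all genes tested, 9.15% were lower in tumors.

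Among Cyp2b genes, Cyp2b10 had the second lowest log2 fold change of the family (-3.88, SE 0.48, adjusted p = 7.59e-06). It ranged from 4.99 (liver 1) over 29.1 to 55.4 scaled TPM in livers. In tumors it was listed at 0 in 7 of 12 samples, and the highest value was 6.98, in tumor 4. Cyp2b9 behaved otherwise: it ranged from 0.944 over 9.78 to 249 (liver 1) in livers and from 14 over 36.1 to 53.5 in tumors, so that the livers spread on both sides of the tumors. With all livers it did not pass the test (log2 fold change 1.29, SE 0.68, adjusted p = 0.205), and without liver 1 it was called higher (log2 fold change 2.14, adjusted p = 0.00334). Cyp2b13, a female-biased member 92.7% identical to Cyp2b9, ranged from 0 to 3.56 in livers and from 0 to 8.22 in tumors (adjusted p = 0.345).

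Of the 4 tested Cyp2a genes 1 rose and none fell. Cyp2a4 ranged from 24.6 over 33.9 to 66.2 scaled TPM in livers and from 255 (tumor 10) over 767 to 1219 in tumors, where it was the most abundant member on average (728 ± 343, SD, n = 12). Every tumor was above every liver in scaled TPM. As deposited, tumor 2 was at 54 TPM, below liver 6 at 78 TPM. The log2 fold change was 4.07 (SE 0.34, adjusted p = 3.1e-08), a 16.7-fold higher level, and it was 4.43 in the E19 and 3.83 in the E20 samples alone (adjusted p = 0.00229 and 0.000375).

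Cyp2a5 ranged from 63.5 (liver 1) over 186 to 294 scaled TPM in livers and from 80.0 (tumor 3) over 311 to 914 (tumor 10) in tumors. In 6 of 12 tumors it was above every liver, and the others lay within the livers' range, and it did not pass the test (log2 fold change 0.91, SE 0.47, adjusted p = 0.193). The sum of both genes does not depend on how their reads were divided. It was 94.1 to 341 scaled TPM in livers and 430 to 1953 in tumors, so the groups did not overlap. For tumor 2 this rests on its scaling, since Cyp2a4 and Cyp2a5 were at 54 and 30 TPM there as deposited. The deposited sums were 132 TPM in liver 1 and 162 to 361 TPM in livers 2 to 6. Tumor 10 had the lowest Cyp2a4 and the highest Cyp2a5 of all tumors. Cyp2a12, a steroid hydroxylase, had close means of 226 ± 36.9 in livers (n = 6) and 234 ± 87.2 in tumors (n = 12), with tumor 10 at 15.8 and the other tumors at 161 to 356 (adjusted p = 0.837).

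Of the 7 tested Cyp2d genes, relatives of the debrisoquine hydroxylase, 5 fell, among them Cyp2d13, which is annotated as a transcribed pseudogene. Cyp2d9, a male-biased steroid hydroxylase, ranged from 151 over 472 to 859 scaled TPM in livers and from 26.2 over 130 to 310 in tumors (log2 fold change -1.81, SE 0.44, adjusted p = 0.00601). Cyp2d22 fell by 1.04 (SE 0.18, adjusted p = 0.000358) with narrow ranges of 108 to 162 and 47.4 to 114. Cyp2d10 fell by 0.66 (SE 0.18, adjusted p = 0.0113), and Cyp2d40 by 0.89 (SE 0.30, adjusted p = 0.0437). The call of Cyp2d40 was lost on leaving out any of 9 samples (livers 2, 4, 5 and 6, tumors 5, 6, 7, 9 and 11), with adjusted p up to 0.123. Cyp2d26, at 388 ± 41.8 in livers (n = 6) and 291 ± 80.6 in tumors (n = 12), and the pseudogene Cyp2d37-ps, at 118 ± 49.8 and 73.8 ± 65.1, did not pass the test (adjusted p = 0.159 and 0.168). Cyp2d12 was at 0 or 1 TPM in every sample.

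Cyp2u1, a fatty acid hydroxylase found mainly outside the liver, was low but separated the groups fully, at 11.4 to 20.3 scaled TPM in livers and 0 to 7.85 in tumors (log2 fold change -2.02, SE 0.34, adjusted p = 0.000248). Cyp2j5, an arachidonic acid epoxygenase, fell from a median of 162 to 61.1 scaled TPM (log2 fold change -1.39, SE 0.45, adjusted p = 0.0347), a call lost when livers 2, 3, 4, 5 or 6 or tumors 6 or 11 were left out (adjusted p up to 0.0832). Tumor 10 held its lowest value, 5.26. Of the 6 genes listed as expressed mainly outside the liver and present in the table, 2 were tested, Cyp2u1 and Cyp4b1. Cyp4b1 stayed at 5.89 ± 1.70 in livers (n = 6) and 5.48 ± 2.12 in tumors (n = 12), with an adjusted p of 0.752, and Cyp2s1 was at 1 TPM in tumor 10 and at 0 elsewhere.

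In the Cyp3a subfamily, Cyp3a11, the main drug-oxidizing 3A enzyme and a PXR target, ranged from 426 (liver 1) over 1117 to 2214 scaled TPM in livers and from 252 over 500 to 942 in tumors. The groups overlapped, with only 2 of 12 tumors below every liver, and the log2 fold change was -1.07 (SE 0.30, adjusted p = 0.0141). Livers 2 to 6 were at 895 to 2214, and only tumors 4 and 10 (934 and 942) reached that range. Without liver 1 the log2 fold change was -1.33 (adjusted p = 0.00138). Cyp3a25 fell by 0.99 (SE 0.28, adjusted p = 0.0156), a call lost without liver 3 or liver 6 (adjusted p = 0.0556 and 0.0513). The remaining female-biased member, Cyp3a44, was at 14 TPM as deposited in liver 1, at 0 to 2 in the other livers and at 0 or 1 in tumors, and Cyp3a16 was at 17 TPM in tumor 10 and at 0 or 1 in the other tumors. Cyp3a41a and Cyp3a41b were listed at 0 in all 12 tumors. Both differ at 2 of 1512 coding positions, so that most reads cannot tell them apart.

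The Cyp4a genes hydroxylate fatty acids at the chain end and are targets of Ppara. Cyp4a14 had the lowest log2 fold change of the family (-4.16, SE 0.88, adjusted p = 0.00206). It ranged from 17.1 over 81.6 to 226 scaled TPM in livers and from 0 over 2.55 to 37.8 in tumors, 5 of which were listed at 0, so that 8 of 12 tumors were below every liver. Cyp4a10 ranged from 28.9 over 122 to 230 in livers and from 0.910 over 6.71 to 83.3 in tumors (log2 fold change -3.14, SE 0.72, adjusted p = 0.00406). Cyp4a31, 96.6% identical to Cyp4a10 in its coding sequence, did not follow it, at 1.07 to 9.44 in livers and 2.93 to 24.6 in tumors (log2 fold change 0.92, adjusted p = 0.101, and 0.0461 without tumor 3). Of the 3 listed Ppara targets in the table, 2 therefore fell, beside 9.15% of all genes tested.

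Cyp4a12a, the male-biased arachidonic acid hydroxylase, ranged from 0.713 (liver 1) over 188 to 256 scaled TPM in livers and from 5.26 over 30.9 to 109 in tumors. All tumors lay below livers 2 to 6, which were at 113 or more, and above liver 1. It did not pass the test with all livers (log2 fold change -1.70, SE 0.82, adjusted p = 0.163) and was called lower without liver 1 (-2.83, adjusted p = 0.000395). Cyp4a12b, 98.6% identical to it, was called lower at levels under 9 (log2 fold change -1.37, SE 0.41, adjusted p = 0.0221), a call lost without livers 2, 3 or 5 (adjusted p up to 0.0749).

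The Cyp4f genes inactivate leukotrienes and hydroxylate long-chain fatty acids, and 3 of 4 tested fell while 1 rose. Cyp4f13 fell by 0.81 (SE 0.19, adjusted p = 0.00441), from 36.2 ± 8.21 in livers (n = 6) to 20.2 ± 4.95 in tumors (n = 12). Cyp4f16 rose by 0.82 (SE 0.14, adjusted p = 0.000212), from 2.55 to 4.99 scaled TPM in livers to 5 to 8.77 in tumors. Its deposited values are whole numbers from 1 to 10, so rounding is a large part of each. The highest liver (liver 1) and the lowest tumor were closer to each other than 1 rounding step. In tumor 2 it was at 1 TPM as deposited, against 3 to 7 TPM in livers. Without scaling it did not pass the test (adjusted p = 0.172). The other 4 called members, Cyp2d13, Cyp2j9, Cyp4f14 and Cyp4f15, fell by 1.40 to 1.82 on the log2 scale. Cyp2j9 lost its call without livers 2, 3 or 6 (adjusted p up to 0.0934).

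**Figure D4:**
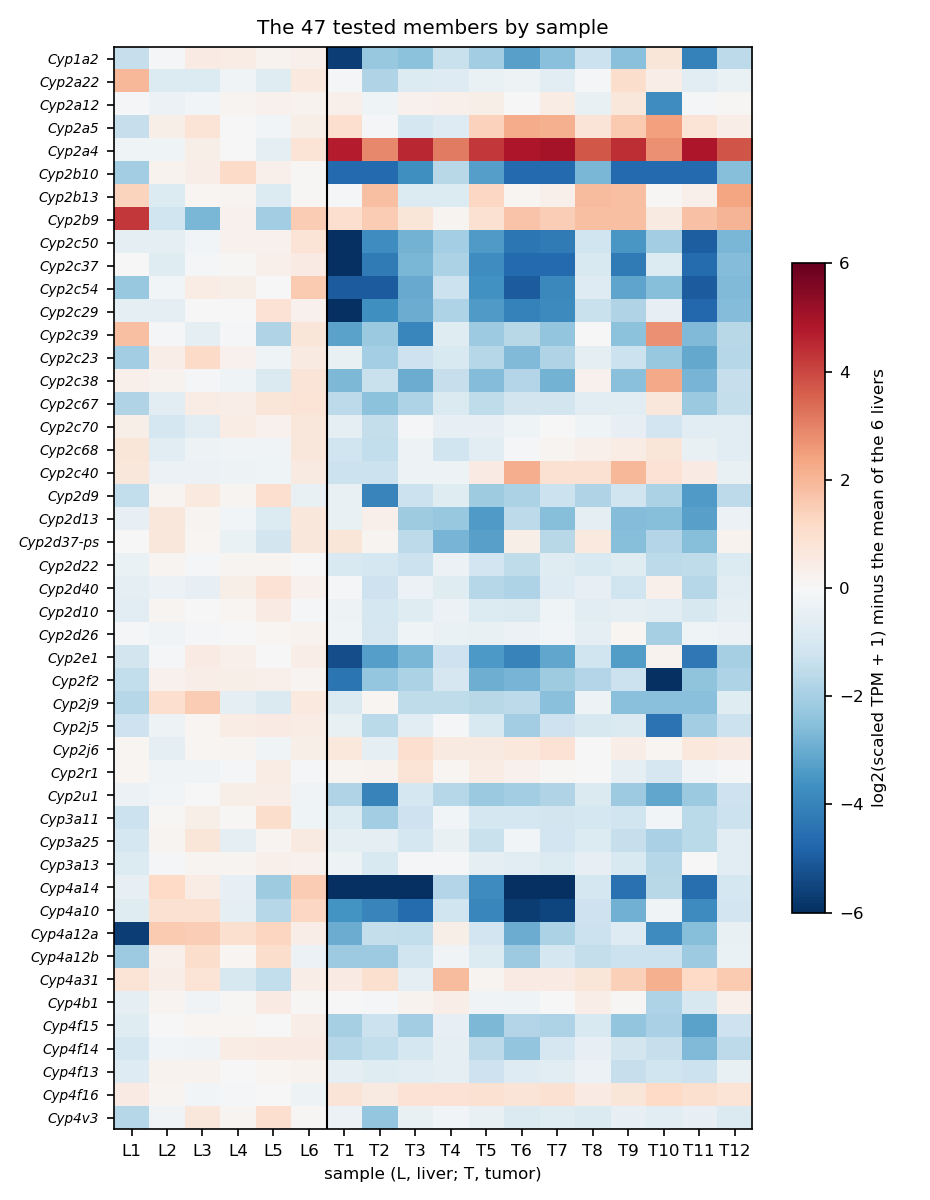
The 47 tested members (rows, by subfamily) in 6 livers and 12 tumors (columns), as the difference of log2(scaled TPM + 1) from the mean of the livers, cut at 6 on either side. Blue rows dominate the Cyp2c, Cyp2d, Cyp4a and Cyp4f genes in tumors, Cyp2a4 is red in all 12 tumors, and the columns of liver 1 and tumor 10 differ from their groups.

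The members were also sorted by their known regulation. The 8 genes listed as inducible through CAR and PXR were Cyp2a5, Cyp2b10, Cyp2c29, Cyp2c37, Cyp2c50, Cyp2c54, Cyp2c55 and Cyp3a11. Of these, 7 were tested, 6 fell and Cyp2a5 did not pass the test. Their median log2 fold change was -3.42, beside -0.06 for all genes tested. All those tested except Cyp2b10 are also among the 8 pericentral members, so both lists rest largely on the same genes. Over all genes tested, 9.15% were lower in tumors and 9.95% higher. Of the 3 male-biased members, Cyp2d9 and Cyp4a12b fell and Cyp4a12a did not pass the test with all livers. Of the 9 female-biased members, 4 were tested, 1 rose (Cyp2a4) and 3 did not pass. Summed over these 9 genes, the level was 329 scaled TPM in liver 1, 27.8 to 108 in livers 2 to 6 and 294 to 1259 in tumors, most of which was Cyp2a4. The female-biased genes Cyp3a41a and Cyp3a41b that were on in liver 1 were at 0 in tumors.

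The regulators and partners of these enzymes were measured alongside. Por, the reductase that feeds electrons to all of them, fell from 279 ± 85.8 scaled TPM in livers (n = 6) to 98.3 ± 55.3 in tumors (n = 12), a log2 fold change of -1.61 (SE 0.30, adjusted p = 0.000599). Alas1, the first enzyme of heme synthesis, fell by 1.05 (SE 0.32, adjusted p = 0.0247), and 4 of the 8 genes of heme synthesis fell. Of the 5 redox partners 2 fell. Nr1i3 (CAR) fell by 2.02 (SE 0.50, adjusted p = 0.00636), from 112 ± 56.7 to 32.2 ± 26.0, and Nr1i2 (PXR) by 0.98 (SE 0.26, adjusted p = 0.00943). Ahr (log2 fold change 0.05, adjusted p = 0.937), Ppara (-0.23, adjusted p = 0.569) and Hnf4a (-0.10, adjusted p = 0.749) did not pass the test. Over the 12 listed regulators 11 were tested, 3 fell and 1 rose. Among 6 regulators of sex bias and growth hormone response 5 were tested and none passed the test. Beside the counts of all these lists, 9.15% of all genes tested were lower in tumors and 9.95% were higher.

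P450 genes of other families, which make bile acids, sterols and steroid hormones, were measured beside them, and of 10 tested 4 fell and 3 rose (median log2 fold change 0.24, beside -1.18 for the members). The shares over all genes tested were 9.15% lower and 9.95% higher. Cyp7b1, the oxysterol hydroxylase of the acidic bile acid route, fell by 2.69 (SE 0.49, adjusted p = 0.000593). Cyp17a1, a steroid hydroxylase and lyase, rose by 2.66 (SE 0.67, adjusted p = 0.00722), and Cyp51, the lanosterol demethylase of cholesterol synthesis, by 1.86 (SE 0.29, adjusted p = 0.000125). Cyp7a1, the rate-limiting enzyme of bile acid synthesis, had a log2 fold change of 0.41 (adjusted p = 0.714) and Cyp8b1, the sterol 12-hydroxylase, of 0.56 (adjusted p = 0.624).

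Some markers of proliferation and of other cells differed between tumors and livers, while others did not pass the test. Over all genes tested, 9.15% were lower in tumors and 9.95% higher. Summed over 4 proliferation genes, the level was 0 to 1.89 scaled TPM in livers and 4.98 to 23.1 in tumors, and 3 of 3 tested rose. Over 5 cholangiocyte markers it was 9.44 to 18.5 in livers and 57.7 to 903 in tumors, nearly all of it Spp1, an extracellular matrix protein of bile duct and tumor cells, which rose by 4.46 (SE 0.44, adjusted p = 3.27e-07), while the defining duct keratins Krt7 and Krt19 were at 0 to 2 TPM as deposited in all samples. For endothelial markers the sums were 19.3 to 52.5 in livers and 17.5 to 68.2 in tumors (2 of 5 tested rose), and for stellate cells and fibroblasts 42.8 to 69.6 and 34.1 to 137 (3 of 6 rose, 2 fell). Kupffer cell and macrophage markers summed to 31.1 to 77.1 and 8.70 to 53.4 (1 of 5 fell), leukocyte markers to 2.97 to 5.94 and 1.24 to 15.8, and erythroid markers to 0 to 12.2 and 1.74 to 39.5, with no call in the latter pair of lists. Markers of kidney, lung and gut summed to 5.70 to 51.8 scaled TPM in livers and 10.5 to 97.2 in tumors. In 6 of the 12 tumors this sum was above every liver. Of these 6 markers 4 were at 0 in every sample, the kidney and lung markers Umod, Kap, Sftpc and Scgb1a1. The sums therefore come from the remaining markers of the list. The 1 marker tested did not pass the test (log2 fold change 0.79). Of the 8 hepatocyte markers 2 fell, 1 rose and 5 did not pass the test, with a median log2 fold change of -0.10. The part of these markers in the P450 differences was not tested.

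The members also differed among the tumors. The 5 members with the largest range of log2(scaled TPM + 1) across the 12 tumors were Cyp2f2 (7.81), Cyp2c39 (6.62), Cyp1a2 (6.36), Cyp2c29 (6.01) and Cyp2e1 (5.53). Tumor 10 was the highest tumor for the last 4 of these and the lowest for Cyp2f2. A test of spread across all genes, on absolute deviations from the group median, called no member at an adjusted p under 0.05, and 1 gene of all tested was called more spread in tumors (0.00873%). At an unadjusted p under 0.05 there were 4 members: Cyp2c37, Cyp2c29 and Cyp2d37-ps with larger deviations in tumors (2.94% of all genes) and Cyp2b9 with larger deviations in livers (0.786% of all genes).

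Tumor 10 stood apart from the other tumors. Of the 47 tested members it held the highest value of the 12 tumors for 14 and the lowest for 11. Such counts were not made over all genes tested, so these describe the members only. Cyp2e1 was at 2181 scaled TPM there, against 46.2 to 817 in the other 11 tumors, Cyp2c29 at 389 against 5.05 to 217, and Cyp2c39 at 193 against 0.975 to 28.5. Beside these, genes that Wnt signals switch on around the central vein, chosen after their values were seen, were far above the other tumors: the glutamine synthetase Glul reached 5390 scaled TPM, while the remaining tumors held 18 to 254 and the livers 194 to 406, and the feedback inhibitors Axin2 and Nkd1 were at 30.7 and 87.7 against at most 2.85 and 3.55 in the other tumors. The periportal amino acid enzymes Sds and Hal were at 0 and 0.877, against at least 26.0 and 22.3 in the other tumors. Of the 8 pericentral members, Cyp1a2 and Cyp2a5 were above every liver in tumor 10, Cyp2e1, Cyp2c29 and Cyp3a11 were within the livers' range, and Cyp2c37, Cyp2c50 and Cyp2c54 (64.9, 51.8 and 4.39) were below every liver. Cyp2f2, Cyp2a12 and Cyp2j5 were the lowest of all tumors there.

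To ask which members varied together across tumors, 6 pairs were compared over the 12 tumors on log2(scaled TPM + 1), with 100000 permutations and Benjamini-Hochberg adjustment over the 6 pairs. Cyp2e1 and Cyp1a2 varied together, with r = 0.95 (permutation p = 3e-05, adjusted p = 0.00018) and rho = 0.91 (permutation p = 0.00021, adjusted p = 0.00126), and r was 0.91 without tumors 10 and 1. Cyp4a10 and Cyp4a14 did too, with r = 0.91 (permutation p = 0.00013, adjusted p = 0.00039) and rho = 0.83 (permutation p = 0.00154, adjusted p = 0.00308), and r was 0.88 without tumors 10 and 12. For Cyp2b9 and Cyp2b13 r was 0.73 (permutation p = 0.00782, adjusted p = 0.0156) and rho 0.83 (permutation p = 0.00147, adjusted p = 0.00308), and r fell to 0.65 without tumors 4 and 10. This pair is limited by low values. Cyp2b13 was at 0 to 10 TPM as deposited in tumors, with a median of 1, so rounding is a large part of each value. In tumor 2 its 1 TPM became 5.24 scaled TPM. Both coding sequences are 92.7% identical, so their reads may be divided imperfectly.

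The pair of zonal genes, Cyp2e1 and Cyp2f2, depended on tumor 10. Over all 12 tumors r was -0.30 (permutation p = 0.333, adjusted p = 0.400) and rho 0.39 (permutation p = 0.212, adjusted p = 0.317), and r was 0.68 without tumors 10 and 1. Without tumor 10 alone r was 0.81 and passed the threshold. Cyp2b10 and Cyp3a11 (r = 0.33, permutation p = 0.292, adjusted p = 0.400, rho = 0.13, permutation p = 0.683, adjusted p = 0.683, and r = 0.05 without tumors 4 and 12) and Cyp2d9 and Cyp4a12a (r = 0.17, permutation p = 0.6, adjusted p = 0.6, rho = 0.24, permutation p = 0.455, adjusted p = 0.547, and r = 0.19 without tumors 2 and 11) did not pass.

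**Figure D5:**
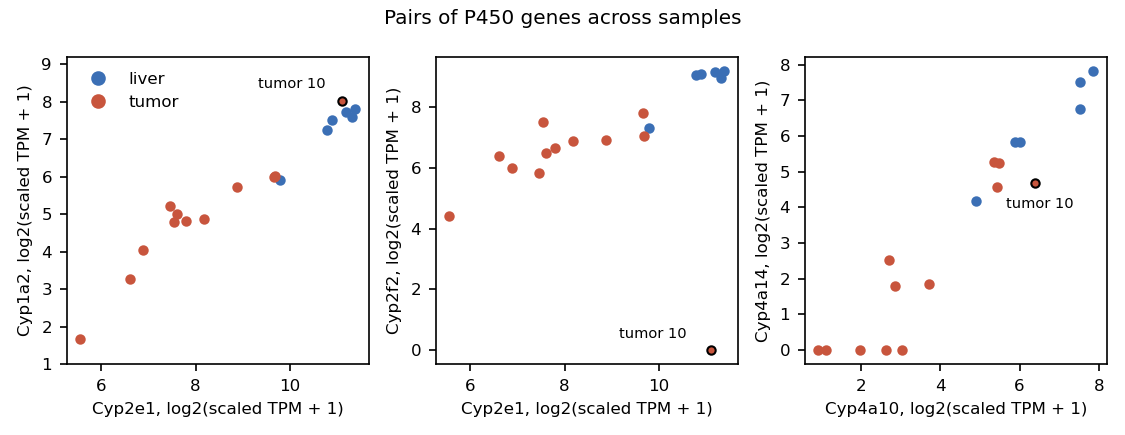
Levels of 3 pairs of members on the scale of log2(scaled TPM + 1), livers in blue and tumors in red, with tumor 10 outlined in black. Cyp2e1 and Cyp1a2 lie along 1 line across tumors, as do Cyp4a10 and Cyp4a14, while tumor 10 stands alone at the highest Cyp2e1 and a Cyp2f2 level of 0.

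Tumors 11 and 12 came from the same mouse. Over the 47 tested members they differed by a mean of 1.23 on the log2 scale, rank 47 of 66 pairs of tumors ordered from the most alike, where the median pair differed by 1.03 and the pairs ranged from 0.51 (tumors 6 and 7) to 2.10 (tumors 1 and 10). Pairs share tumors, so these values are a description without a test. Cyp2e1, for example, was at 78 TPM as deposited in tumor 11 and at 570 TPM in tumor 12, and Cyp4a14 at 2 and 45 TPM.

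The tag in the sample names was examined as a possible batch. In the E19 samples alone (2 livers, 7 tumors) 17 members were lower (5.44% of all genes) and 2 higher (6.85%), and in the E20 samples alone (4 livers, 5 tumors) 10 were lower (1.21% of all genes) and 1, Cyp2a4, was higher (3.47%). With so few livers, groups that do not overlap are common: 28 members and 26.1% of all genes in E19, and 14 members and 10.1% of all genes in E20. All 28 members called over both tags had the same sign within each tag. The difference between tags in the tumor to liver contrast passed the threshold for no member (limma interaction, adjusted p) and for none of all genes tested (0%). At an unadjusted p under 0.05 there were 335 genes (2.93%), including 3 members: Cyp2d37-ps, Cyp4a31 and Cyp2d13.

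By position, members of 1 gene cluster could differ in direction. The chromosome 7 region of 1236 kb from Cyp2b10 to Cyp2f2 (GRCm38.p6) holds Cyp2b10 and Cyp2f2, which fell, and Cyp2a4, which rose, with Cyp2b9, Cyp2b13, Cyp2a5, Cyp2a12 and Cyp2a22 between them, none of which passed the test. On chromosome 19 the Cyp2c genes were split into 6 that fell and 5 that did not pass, on chromosome 15 the Cyp2d genes into 5 and 2, and on chromosome 17 Cyp4f13, Cyp4f14 and Cyp4f15 fell while Cyp4f16 rose. Of the 217 pairs of members within subfamilies with coding models, 16 were at least 95% identical, and 8 of the 28 called members belong to such a pair, so that the split of reads between copies is uncertain for these.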

How the data were processed

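Poly-A RNA of 6 livers and 12 tumors was sequenced paired end, and the authors quantified the reads with Salmon on GRCm38 (mm10) and expressed them as TPM. What they deposited was taken as a score, namely TPM rounded to whole numbers, although the study calls them counts. TPM do not keep read depth, so no counting intervals are given. 8 lines with an extra separator were read accordingly. Ages are those the study lists, whose mouse number differs from the label in 2 tumors (3 and 10).

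Each sample was divided by a factor from trimmed log ratios to a reference sample (30% of ratios and 5% of mean levels trimmed at each end). Genes with at least 1 scaled TPM in at least 6 samples were fitted on log2(value + 1) with limma 3.58.1 (R 4.3.3, trend in the prior variance), two-sided, with Benjamini-Hochberg adjustment over all 11452 genes tested. A fold change on this scale understates the change of low genes. Spread and tag interaction used the same genes. Correlations used 100000 permutations (scipy 1.17.1). The fits were tested on simulated data. Tumors 11 and 12 share a mouse, so p-values treat 1 mouse as 2 samples, and averaging them is among the alternatives. Alternatives covered scaling, pseudocount, filter, variance model, covariates, tags and each sample left out.

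Named genes are the listed members above 0, the 10 lowest and 10 highest fold changes among called members, members with a mean of at least 100 in either group and the 5 with the largest range across tumors. Glul, Axin2, Nkd1, Sds, Hal, Spp1 and the marker genes at or near 0 are outside this rule and were named after their values were seen. The members and lists were chosen with earlier results of these data known. Promoters are from RefSeq (GRCm38.p6), matched for 57 of 74 members, and coding sequences from GENCODE vM21 models, aligned end to end.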

Additional observations from a re-analysis of the deposited data

Results flagged for a closer look

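In the 6 livers, 44 of the named members were examined by Dixon's criterion, on deposited TPM. It asks whether a sample's gap to its nearest neighbor is too large a part of the group's range. For continuous, normally distributed values chance gives this in about 1 of 20 groups (2.2 of 44). That rate need not hold for whole TPM, where any step meets the criterion when all other livers share 1 value. Near-identical members such as Cyp3a41a and Cyp3a41b are also not independent. The number of flagged members can therefore not be set against chance. The criterion was met for 14 members, for 10 of them by liver 1.

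Liver 1 was far above the other livers for Cyp3a41a (gap 1 of the range, 24 against 0 TPM), Cyp3a41b (gap 1, 13 against 0), Cyp3a16 (gap 1, 9 against 0), Cyp3a44 (gap 0.857, 14 against 2), Cyp2b9 (gap 0.879, 349 against 43), Cyp2b13 (gap 0.8, 5 against 1), Cyp2c39 (gap 0.645, 145 against 56), Cyp2c69 (gap 1, 1 against 0) and Cyp4f16 (gap 0.75, 7 against 4), and far below them for Cyp2f2 (gap 0.720, 222 against 507). Of these, Cyp3a41a, Cyp3a41b, Cyp3a16, Cyp3a44, Cyp2b9, Cyp2b13 and Cyp2c69 were among the 9 members listed as female-biased.

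As deposited, liver 6 was far above the others for Cyp2c50 (gap 0.646, 460 against 268 TPM) and Cyp2c54 (gap 0.631, 111 against 46). The criterion was not applied to scaled TPM, and livers 1 and 6 have the largest scaling factors of the livers (1.40 and 1.18). In scaled TPM liver 6 was less far above, at 390 against 265 for Cyp2c50 and 94.2 against 43.4 for Cyp2c54. Liver 1 was at 103 against 47.5 for Cyp2c39 and at 4.99 against 3.77 for Cyp4f16. Whether these members would still be flagged was not tested. For Cyp2c55 (gap 1, liver 5 at 2 against 1 TPM) and Cyp1a1 (gap 1, liver 3 at 0 against 1 TPM) the gap is the smallest step that whole TPM allow, as it is for Cyp2c69.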

How the results depend on the processing

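Over the 36 named members tested, 1189 fold changes kept their direction and side of the threshold under the alternatives, 79 lost significance, 13 gained it and 12 changed sign, all of them in members not called. Of the values of the 6 correlations 103 kept both, 2 lost significance and 3 changed sign. The 28 called members kept their sign throughout. The log2 fold change of Cyp2a12 became 0.025 with sample quality weights, 0.038 in E20 samples and 0.17 in samples 1 to 6 with or without the replicate block. That of Cyp2c40 became -0.12 in E20 samples and -0.088 in samples 1 to 6 with or without the block, that of Cyp4b1 0.21 and 0.010, and that of Cyp2d37-ps 0.033 in E20 samples. In the E20 samples alone 11 members were called (10 lower, 1 higher, 10 at least 2-fold, 14 not overlapping), and the number of all genes that differ between tumors and livers was 536, and in the E19 samples alone 17 were lower, 28 did not overlap (26.1% of all genes, and 10.1% in E20) and 1408 genes were called, with fewer samples in each. Without scaling 1 member was higher and 1341 genes were called, the median of all genes moving from -0.06 to -0.18. With sample quality weights 4 members were higher and 4528 genes were called, and without tumor 2 and liver 1 together 4 were higher, 15 did not overlap and 3590 genes were called. The cause of these shifts was not tested.

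Leaving out 1 sample at a time gave 23 to 32 called members, 21 to 29 lower, 2 to 3 higher, 19 to 28 at least 2-fold, 5 to 15 not overlapping (15 without liver 1, 8 without tumor 4) and 1667 to 3080 of all genes that differ between tumors and livers (3080 without tumor 2). It gave r of Cyp2e1 and Cyp2f2 from -0.51 (without tumor 1) to 0.81 (without tumor 10). The log2 fold change of Cyp2a12 ran from -0.25 (without tumor 9) to 0.15 (without tumor 10), r of Cyp2b10 and Cyp3a11 from -0.019 (without tumor 4) to 0.55 (without tumor 10), and r of Cyp2d9 and Cyp4a12a from -0.013 (without tumor 4) to 0.36 (without tumor 1).

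Livers and tumors share the numbers 1 to 6 in their labels only. Same-numbered samples did not all deviate together (r of deviations from -0.10 to 0.43, mean 0.18), and 3 of 6 livers correlated best with their own number. With the replicate block 22 members were called and all genes that differ between tumors and livers numbered 1514, against 21 members, 1363 genes and 9 members not overlapping in the same 12 samples without it. TPM do not keep depth, and rounding to whole TPM limits members of a few TPM, most of all in tumor 2.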
